A study of Homo sapiens with 4 samples.

Results

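The BCL2 family genes described here are 10 genes taken by symbol from the 26364 genes listed in each sample, and all 10 were listed once in every sample. They comprise 3 anti-apoptotic members (BCL2, BCL2L1 and MCL1) and 7 pro-apoptotic members, namely the effector BAX and the 6 BH3-only members BID, BCL2L11, PMAIP1, BBC3, BMF and BIK. The study sequenced total RNA of BE(2)C, an established MYCN-amplified human neuroblastoma line, to ask how MYCN knockdown changed expression. Ctrl cells (2 samples) received a non-targeting siRNA and MYCN KD cells (2 samples) received siRNA against MYCN, both with Lipofectamine 2000, a lipid carrier, for 6 h, and RNA was taken the next day. The labels give 80 nM siRNA for all samples, whereas the methods of the study state a lower final concentration. Both groups derive from a single line, and the knockdown rests on a single MYCN siRNA.

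Proteins of the BCL2 family decide whether the outer membrane of mitochondria stays intact. Anti-apoptotic members bind and restrain the effectors BAX and BAK1, which otherwise form pores and release cytochrome c. BH3-only proteins carry a short helix, the BH3 motif, that occupies the groove of anti-apoptotic members, and some of them, such as BIM and cleaved BID, also activate the effectors directly. MYC proteins are known both to drive growth and to sensitize cells to apoptosis, partly through this family, and MYCN-amplified neuroblastoma is known for its use of BCL2 and MCL1.

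MYCN binds DNA as a dimer with MAX, with the E-box CACGTG as its best known motif, so the promoters of the members were searched for these letters, which read the same on both strands. RefSeq promoter windows (GRCh38.p14, 250 bases before to 50 after each start) matched 8 of the 10 members in 14 windows, and MCL1 and BIK had no entry. The motif was present in windows of 3 members, BAX, BID and BBC3. By window, it was in 4 of the 14 member windows, where those of BID share a single site, and in 7.26% of all 35116 windows. BAX held 4 copies, a number reached or passed in 5 of all windows. The 250 bases upstream of BAX (chr19:48954625-48954874, plus strand) are shown because of these copies, which begin 138, 93, 45 and 14 bases before the start. For BID (chr22:17774072-17774101, minus strand) and BBC3 (chr19:47232882-47232911, minus strand), 30 bases around the single copy are shown. The BID site lies 106 bases before 1 annotated start and 47 before another, and the BBC3 site lies 232 bases before the start. Capitals mark the motif.
BAX: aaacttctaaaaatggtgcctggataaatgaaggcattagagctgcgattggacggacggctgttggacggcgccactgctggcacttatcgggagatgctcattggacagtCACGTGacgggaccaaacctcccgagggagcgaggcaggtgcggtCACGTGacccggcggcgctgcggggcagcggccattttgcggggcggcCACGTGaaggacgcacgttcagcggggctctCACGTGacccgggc
BID: ttgtgtcctctcCACGTGgcctggggattc
BBC3: atggggagatttCACGTGagatatagatta

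A match is a description of the letters and not a measured binding site, and MYCN binding was not analysed here.

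The values are RPKM, read counts scaled to gene length and to library size, calculated by the authors after removal of unwanted variation. For the 11411 genes that averaged at least 1 RPKM, limma was used on log2(RPKM + 1) values. All log2 fold changes below are MYCN KD minus Ctrl on this scale, which understates the change of low genes, and folds are ratios of mean RPKM. The low values are whole multiples of 1 read, which gave totals of 29055819 to 34142988 reads behind the samples. MYCN itself was 1068 and 1073 RPKM in Ctrl compared with 720.2 and 718.0 in MYCN KD, 67.2% of the Ctrl mean (adjusted p = 0.00361 from limma). Over the tested genes, replicate 1 of Ctrl and replicate 1 of MYCN KD departed from their group means with a correlation of -0.9845. The deviations within the groups thus lie along nearly a single axis, and the p-values rest on less independent error than 2 samples per group would give. With 2 samples against 2, an exact permutation test of a single gene cannot go below a two-sided p of 0.3333. Among all tested genes, 25.3% were higher and 22.8% lower in MYCN KD, and the marker counts that follow stand beside these shares. All 12 sympathetic neuroblast markers sought passed the filter, and 7 were higher and 2 lower in MYCN KD. Their summed level was 3774 to 4068 RPKM in Ctrl and 5321 to 5721 in MYCN KD. Of 10 mesenchymal or fibroblast markers 6 were tested and 4 were higher in MYCN KD, of which COL1A1 and COL6A3 passed the filter through MYCN KD alone, with a summed level of 70.0 to 75.7 RPKM in Ctrl and 70.4 to 75.8 in MYCN KD and PRRX1 at 0 in every sample. Of 6 Schwann cell markers, 2 were tested and both were higher, with a summed level of 5.60 to 5.92 RPKM in Ctrl and 9.90 to 10.5 in MYCN KD and the defining marker SOX10 at no more than 0.0722. Of 6 blood cell markers 1 was tested, with a summed level of 1.57 to 1.80 RPKM over all samples and PTPRC at no more than 0.00464 RPKM. The part of these markers in the results below was not tested.

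Upon MYCN knockdown, members changed in both directions, with BCL2 and BMF higher and BID, PMAIP1 and BCL2L11 lower in the calls least dependent on the fit. Of the 3 anti-apoptotic members, 2 rose (BCL2 and BCL2L1) and 1 did not pass the test (MCL1). Among the 7 pro-apoptotic members, 3 fell (BID, PMAIP1 and BCL2L11), 2 rose (BMF and, at the limit of the threshold, BBC3), 1 did not pass (BAX) and 1 was too low to be tested (BIK). In all, 4 of the 9 tested members were higher and 3 lower at an adjusted p under 0.05, against 25.3% of all tested genes higher and 22.8% lower. Among the 9 tested members, both MYCN KD samples lay above both Ctrl samples in 5 and below them in 3, all BH3-only. The shares of all tested genes were 40.4% above and 35.8% below. BIK, which was not tested, also had both MYCN KD samples below both Ctrl samples. The median log2 fold change was 0.36 for the 3 anti-apoptotic members and -0.22 for all 7 pro-apoptotic members, beside 0.03 for all genes tested. The anti-apoptotic median is the value of MCL1, which did not pass, and the pro-apoptotic median that of BIK, which was not tested and moved to -0.53 with limma voom on whole reads.

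**Figure D1:**
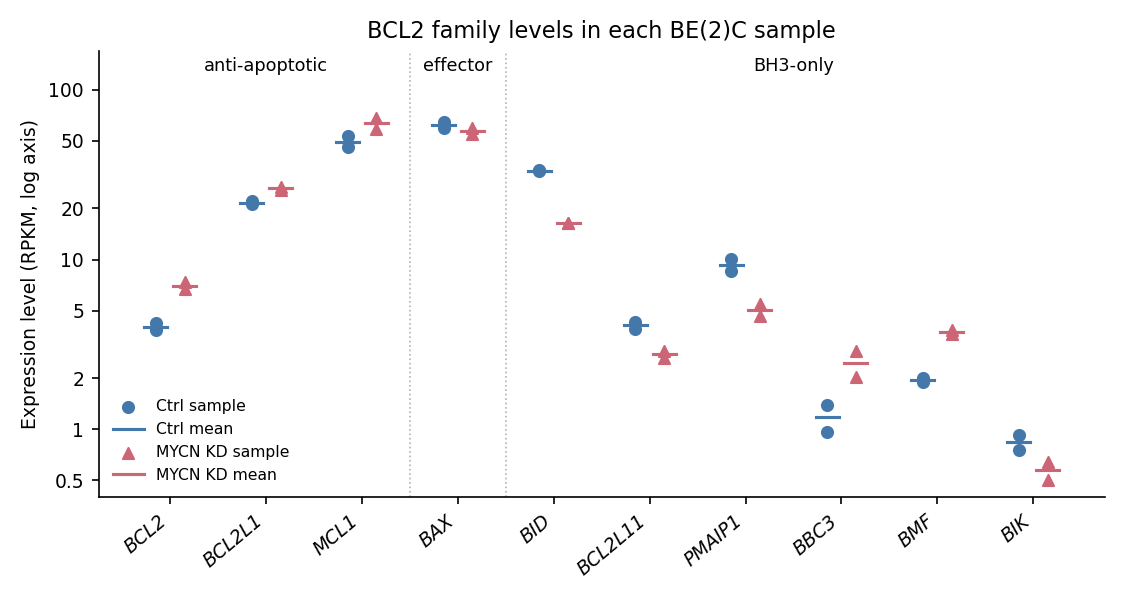
RPKM of the 10 members (log axis) in each of the 2 Ctrl samples (circles) and 2 MYCN KD samples (triangles), with the mean of each group as a line. All 3 anti-apoptotic members sit higher in MYCN KD, while BID drops from about 33.5 to 16.4 RPKM and the samples of BAX overlap.

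BCL2, the founding anti-apoptotic member, lies on chromosome 18 (GRCh37, the build of all gene positions below) from 60790579 to 60987361 on the minus strand. It had 3.83 and 4.23 RPKM in Ctrl versus 7.34 and 6.67 in MYCN KD. The groups did not overlap, and the mean rose 1.74-fold (log2 fold change 0.67, standard error 0.073, adjusted p = 0.00867 from limma). This change was larger than that of 93.7% of the tested genes. BCL2 stayed past the threshold in every other fit that kept all 4 samples. Over 12 other fits, including those with 1 sample left out, its log2 fold change was 0.61 to 0.80. These fits reuse the same samples.

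BCL2L1 encodes BCL-XL, which restrains BAX and BAK1, and by alternative splicing also the pro-apoptotic BCL-XS. The gene (chromosome 20, 30252255 to 30311792) had 22.1 and 21.3 RPKM in Ctrl against 25.9 and 26.8 in MYCN KD. Its mean rose 1.21-fold (log2 fold change 0.27, 95% interval 0.14 to 0.39, adjusted p = 0.0173 from limma). With single samples left out, the log2 fold change was 0.24 to 0.29. With the replicate number added to the fit as a block, the call was lost (adjusted p = 0.168 from limma). Gene-level values do not separate BCL-XL from BCL-XS, and the same holds for the isoforms of MCL1 and BCL2L11. Exons of ABALON on the opposite strand overlap 41.3% of the annotated BCL2L1 exon bases. ABALON was listed at 0.862 and 0.838 RPKM in Ctrl against 1.09 and 1.12 in MYCN KD. The strand setting of the counting is not given in the sources used here.

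MCL1, a short-lived anti-apoptotic protein, had the highest level of the 3 in all samples. The gene (chromosome 1, 150533371 to 150552214) was measured at 45.8 and 53.4 RPKM in Ctrl compared with 68.6 and 59.1 in MYCN KD. Both MYCN KD samples were above both Ctrl samples, but the samples of each group lay far apart, and the difference did not pass the threshold (log2 fold change 0.36, 95% interval 0.01 to 0.71, adjusted p = 0.0831 from limma). With single samples left out, the log2 fold change of MCL1 ranged from 0.25 to 0.47. Within the anti-apoptotic members, MCL1 made up 65.8% of the summed RPKM in Ctrl and 65.6% in MYCN KD, whereas the share of BCL2 went from 5.35% to 7.21%.

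BAX, the effector, lies on chromosome 19 from 49458072 to 49465055, and its upstream bases with 4 E-box copies are shown above. Its level was 64.7 and 59.3 RPKM in Ctrl versus 54.8 and 59.8 in MYCN KD. The groups overlapped, and the log2 fold change of -0.11 had a 95% interval from -0.33 to 0.10 (adjusted p = 0.274 from limma). BAX was the most abundant member in Ctrl, and in MYCN KD its samples overlapped with those of MCL1.

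BID had the lowest adjusted p of the members. It encodes the protein that caspase-8 cleaves to link death receptors to mitochondria, and lies on chromosome 22 from 18216904 to 18257536. The Ctrl samples had 33.3 and 33.7 RPKM and the MYCN KD samples had 16.5 and 16.4 RPKM. Replicates differed little, and the mean fell to 49.1% of Ctrl (log2 fold change -0.98, standard error 0.034, adjusted p = 0.00359 from limma). Only 1.40% of the tested genes had a lower log2 fold change. The change lay between -1.03 and -0.93 in 12 other fits and passed the threshold in each that kept all 4 samples. BID alone accounted for 65.8% of the summed BH3-only RPKM in Ctrl and for 52.9% in MYCN KD.

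PMAIP1 encodes NOXA, a BH3-only protein that binds mainly MCL1, and lies on chromosome 18 from 57567228 to 57571537. Its values were 8.55 and 10.1 RPKM in Ctrl against 5.48 and 4.66 in MYCN KD. No MYCN KD sample reached a Ctrl sample, and the mean fell to 54.2% of Ctrl (log2 fold change -0.77, standard error 0.12, adjusted p = 0.01645 from limma). BCL2L11 encodes BIM, which binds all anti-apoptotic members and activates BAX, and lies on chromosome 2 from 111876955 to 111926021. It fell from 3.89 and 4.31 RPKM in Ctrl to 2.90 and 2.62 RPKM in MYCN KD, or to 67.3% of the Ctrl mean (log2 fold change -0.44, standard error 0.071, adjusted p = 0.0182 from limma). Both genes stayed past the threshold in each other fit that kept all 4 samples and tested them. Exons of MIR4435-2HG on the opposite strand overlap 10.8% of the BCL2L11 exon bases, and that gene had 5.17 and 5.86 RPKM in Ctrl compared with 4.70 and 4.15 in MYCN KD, so reads from the shared bases cannot be told apart without strand.

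BMF, a BH3-only protein known to be held at the cytoskeleton until it is released, went up. The gene (chromosome 15, 40380091 to 40401093) had 1.90 and 2.01 RPKM in Ctrl versus 3.87 and 3.66 in MYCN KD, from 307 to 310 reads in Ctrl and 537 to 541 in MYCN KD. Its mean rose 1.92-fold (log2 fold change 0.69, standard error 0.049, adjusted p = 0.00470 from limma). In Ctrl, the level of BMF was 0.489 and 0.466 of that of BCL2L11, and in MYCN KD it was 1.34 and 1.40 times that of BCL2L11.

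BBC3 encodes PUMA, a BH3-only protein that binds all anti-apoptotic members, and lies on chromosome 19 from 47724079 to 47736023. It had 1.38 and 0.970 RPKM in Ctrl (99 and 65 reads) and 2.04 and 2.88 RPKM in MYCN KD (124 and 187 reads). Both MYCN KD samples were higher, and the samples within each group differed by more than those of the other low members. The mean was 2.09-fold that of Ctrl (log2 fold change 0.66, 95% interval 0.15 to 1.18, adjusted p = 0.04997 from limma). The call was lost with quantile normalization (adjusted p = 0.0840), with no filter on low values (0.0798) and with eBayes without a trend (0.0503).

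BIK, a BH3-only protein of the endoplasmic reticulum, was the lowest member and was below the filter. The gene (chromosome 22, 43506756 to 43525718) had 0.922 and 0.755 RPKM in Ctrl against 0.506 and 0.644 in MYCN KD. These values stand on 30, 23, 14 and 19 reads, whose exact 95% Poisson intervals overlap between the groups (20.2 to 42.8 and 14.6 to 34.5 reads against 7.7 to 23.5 and 11.4 to 29.7). Such intervals cover counting error only. Both MYCN KD samples lay below both Ctrl samples, and with no filter on low values the difference did not pass (adjusted p = 0.121 from limma).

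**Figure D2:**
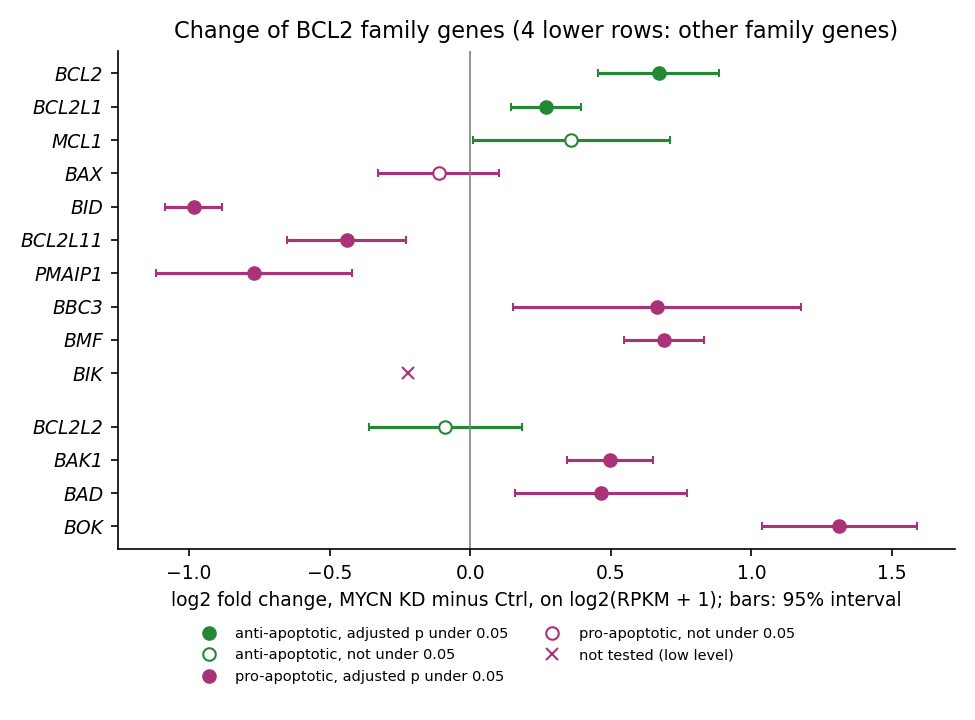
Log2 fold changes of the 10 members and of 4 other BCL2 family genes, with 95% intervals from limma. Filled circles passed the threshold, open circles did not, and BIK (cross) was not tested. Of the members, BMF lies highest at 0.69 and BID lowest at -0.98, and BOK lies farthest to the right, at 1.31.

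Per length, the members spanned from 0.838 RPKM (BIK) to 62.0 RPKM (BAX) in Ctrl. The order in Ctrl was BAX, MCL1, BID, BCL2L1, PMAIP1, BCL2L11, BCL2, BMF, BBC3 and BIK, and in this order only the neighbours BCL2L11 and BCL2 overlapped in their samples. In MYCN KD the order was MCL1, BAX, BCL2L1, BID, BCL2, PMAIP1, BMF, BCL2L11, BBC3 and BIK, where MCL1 overlapped with BAX and BCL2L11 with BBC3. BCL2L1 was below BID in both Ctrl samples and above it in both MYCN KD samples, and BCL2 likewise changed places with PMAIP1. The RNA is from whole cultures, so less RNA per cell and fewer cells that express a gene cannot be told apart.

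**Figure D3:**
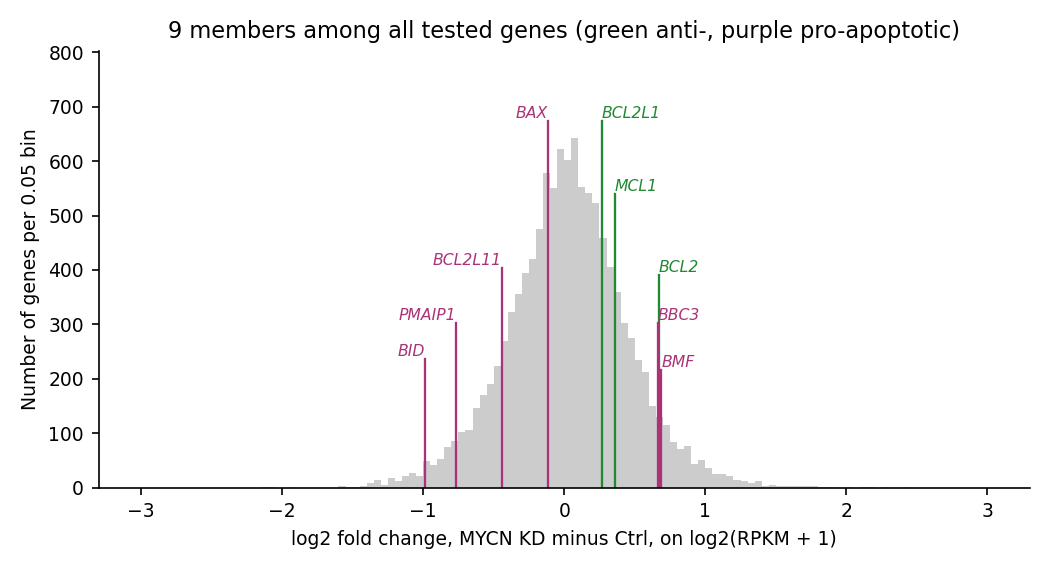
Number of tested genes by log2 fold change (grey, bins of 0.05) with the 9 tested members as lines (green anti-apoptotic, purple pro-apoptotic); line height carries no value. BID and PMAIP1 lie in the lower tail and BCL2, BBC3 and BMF in the upper part, each in a range that many other genes share.

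Within a sample, the level of an anti-apoptotic gene can be set against that of a pro-apoptotic partner. The ratio of BCL2 to BCL2L11 was 0.985 and 0.980 in Ctrl compared with 2.53 and 2.54 in MYCN KD. For MCL1 to PMAIP1, whose proteins bind each other, it was 5.36 and 5.26 in Ctrl versus 12.5 and 12.7 in MYCN KD. BCL2L1 to BID had ratios of 0.662 and 0.633 in Ctrl against 1.57 and 1.64 in MYCN KD. By the group means these 3 ratios were 2.58-fold, 2.38-fold and 2.47-fold higher in MYCN KD. Each pair sets a member that was higher in MYCN KD over one called lower, so the rise follows from the choice of pairs. BMF and BBC3 (at the limit of the threshold) rose 1.92-fold and 2.09-fold. That is more than BCL2 (1.74-fold), MCL1 (1.29-fold) and BCL2L1 (1.21-fold). Set against the mean of BMF or BBC3, the mean of each anti-apoptotic member was thus lower in MYCN KD. For BCL2 to BCL2L11 and MCL1 to PMAIP1 the replicates lay closer together than those of the single genes. Since deviations within the groups lie along nearly a single axis over all tested genes, genes that deviate alike give close ratios. Whether this closeness is particular to these pairs was not tested. BCL2 to BAX, a ratio often used as an index of apoptotic sensitivity, was 0.0592 and 0.0713 in Ctrl compared with 0.134 and 0.112 in MYCN KD. The summed RPKM of the 3 anti-apoptotic members was 71.7 and 78.9 in Ctrl versus 102 and 92.5 in MYCN KD, while that of the 7 pro-apoptotic members was 115 and 111 in Ctrl against 86.1 and 90.6 in MYCN KD. The pro-apoptotic sum was thus 1.6 and 1.41 times the anti-apoptotic sum in Ctrl, and 0.846 and 0.979 times in MYCN KD. These sums leave out the 4 other pro-apoptotic family genes, which summed to 52.2 to 57.2 RPKM in Ctrl and 76.6 to 83.9 in MYCN KD. They also leave out the 3 other anti-apoptotic family genes (15.4 to 17.2 RPKM in Ctrl, 14.3 to 16.0 in MYCN KD). Which sum is larger in MYCN KD therefore depends on the genes counted. These sums and ratios describe RNA of genes chosen with results known and carry no test, and the sums of members are dominated by MCL1, BAX, BCL2L1 and BID.

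**Figure D4:**
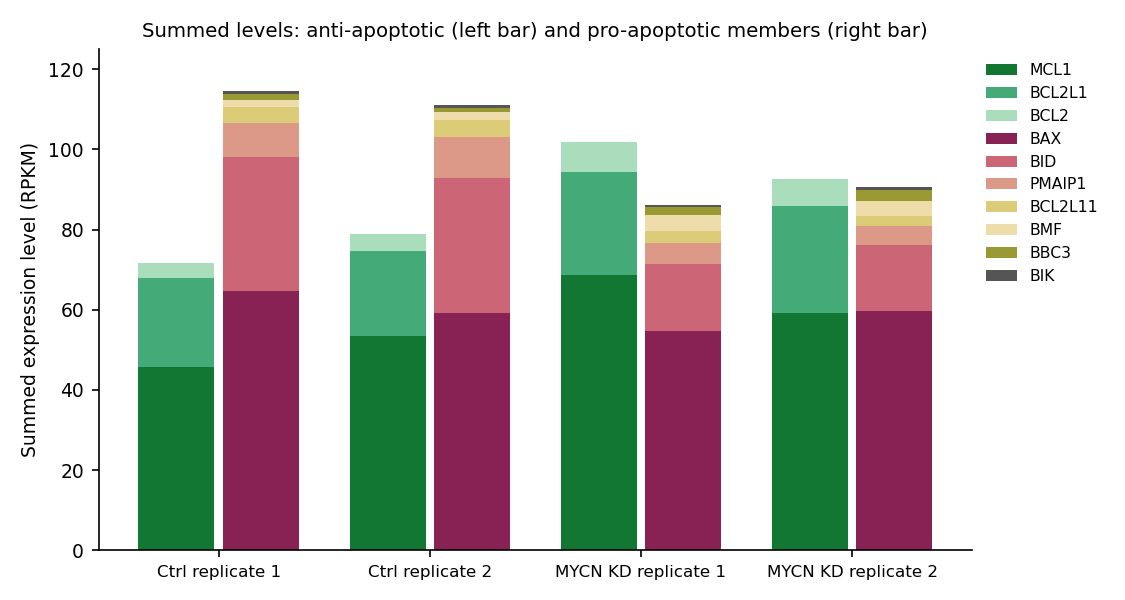
Stacked RPKM of the 3 anti-apoptotic members (left bar of each pair) and the 7 pro-apoptotic members (right bar) in each sample. The right bar is taller in both Ctrl samples and shorter in both MYCN KD samples, and the segment of BID shrinks most. Other family genes, such as BAK1 and BAD, which rose, are not included.

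In the wider family, some genes rose and others did not pass the test. Of 4 other pro-apoptotic family genes, 3 were tested and all 3 rose, against 25.3% of all tested genes higher and 22.8% lower. With no filter on low values, BAD was not called (adjusted p = 0.0561 from limma) and HRK was called lower. BOK, a BAX-like effector, had 1.84 and 1.57 RPKM in Ctrl compared with 5.30 and 6.13 in MYCN KD, a 3.355-fold rise (log2 fold change 1.31, adjusted p = 0.00476 from limma) that was larger than that of 99.5% of the tested genes. BAK1, the partner effector of BAX, rose 1.43-fold (29.5 and 27.9 RPKM in Ctrl, 39.9 and 42.1 in MYCN KD, adjusted p = 0.00798), and the ratio of BAX to BAK1 was 2.19 and 2.12 in Ctrl versus 1.37 and 1.42 in MYCN KD. BAD, a BH3-only protein controlled by phosphorylation, rose 1.40-fold (adjusted p = 0.0351 from limma). Of 3 other anti-apoptotic family genes, only BCL2L2, which encodes BCL-W, was high enough to be tested, with 14.96 and 16.86 RPKM in Ctrl against 15.8 and 14.1 in MYCN KD (adjusted p = 0.472 from limma). Of 6 distant BCL2-related genes, 4 were tested and 0 passed the threshold: BNIP3 (log2 fold change -0.20, adjusted p = 0.157), BNIP3L (0.50, adjusted p = 0.0604), BCL2L12 (0.08, adjusted p = 0.179) and BCL2L13 (0.11, adjusted p = 0.112). At an unadjusted p under 0.05, 1 of these 4 was counted (BNIP3L), and limma voom on whole reads also called 0. BNIP3L passed after quantile normalization (adjusted p = 0.0333 from limma) and with the replicate block (0.0161). Its log2 fold change was 0.37 to 0.63 with single samples left out.

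Downstream of mitochondria, 13 of 16 genes for the apoptosome, mitochondrial factors and caspases were tested, of which 3 rose and 4 fell. The shares over all tested genes were 25.3% higher and 22.8% lower. CASP9, the initiator caspase of the apoptosome, rose from 0.771 and 0.823 RPKM to 2.03 and 1.90 RPKM (2.46-fold, adjusted p = 0.00422 from limma), although its Ctrl mean of 0.797 RPKM is below the filter, which it passed through MYCN KD, and with no filter on low values it was also called (adjusted p = 0.008575). APAF1, its scaffold, rose from 1.67 and 1.92 to 3.19 and 2.77 RPKM (adjusted p = 0.0192). DIABLO, an antagonist of inhibitor of apoptosis proteins, rose 1.19-fold (adjusted p = 0.0108). By contrast, CYCS, which encodes cytochrome c, fell to 81.2% of Ctrl (adjusted p = 0.0198), VDAC1, a channel of the outer membrane, to 75.9% (adjusted p = 0.0179) and HTRA2, a mitochondrial protease, to 78.1% (adjusted p = 0.0214). With single samples left out, the log2 fold change of DIABLO was 0.250 to 0.253, that of CYCS -0.33 to -0.26 and that of HTRA2 -0.36 to -0.28. With the replicate block, the calls of DIABLO (adjusted p = 0.164 from limma), CYCS (0.108) and HTRA2 (0.128) were lost. CYCS was also not called with the same RPKM total (0.0530), where 2 genes of the list fell. CASP8, the protease upstream of BID, is known to be silenced in many neuroblastomas with MYCN amplification, and was below the filter and not tested, and it is given here although its values were seen first (0.788 and 0.996 RPKM in Ctrl, 1.08 and 0.861 in MYCN KD).

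Among 7 inhibitor of apoptosis genes, 4 were tested. XIAP, a direct caspase inhibitor, rose from 3.23 and 4.11 RPKM to 8.57 and 6.77 RPKM (2.09-fold, adjusted p = 0.0220 from limma). BIRC5, which encodes survivin and acts in mitosis as well, fell to 86.9% of Ctrl (adjusted p = 0.03685 from limma). That call was lost after quantile normalization (0.0743), with no filter on low values (0.0519) and with the replicate block (0.265), all from limma. The log2 fold change of BIRC5 was -0.23 to -0.17 with single samples left out. BIRC2 and BIRC6 did not pass, and the log2 fold change of BIRC6 ranged from 0.22 to 0.45 with single samples left out. Of 13 death receptor pathway genes, 7 were tested, 5 rose and 2 did not pass, against 25.3% of all tested genes higher and 22.8% lower. The 3 with the lowest adjusted p were TRADD (1.90 and 1.73 RPKM in Ctrl, 3.76 and 4.10 in MYCN KD), RIPK1 (4.02 and 3.76 against 6.49 and 6.92) and FADD (31.2 and 30.2 against 41.8 and 43.1), which link the receptors to caspase-8 or to NF-κB signalling, with adjusted p from 0.00514 to 0.00619 from limma. TNFRSF21 (log2 fold change -0.14) and TNFRSF10B (-0.01) did not pass.

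Of 20 genes that are known to control BCL2 family genes or proteins, 17 were tested, 7 rose and 4 fell. EGR1, an immediate early factor, rose 2.11-fold from 11.2 RPKM in each Ctrl sample to 23.7 and 23.5 RPKM (adjusted p = 0.00359 from limma), JUN 1.28-fold (adjusted p = 0.00904) and BTRC, a subunit of a ubiquitin ligase that acts on BIM and MCL1, to 150.1% of Ctrl (adjusted p = 0.0268). ATF4, a factor upstream of PMAIP1 and BBC3 in stress, fell to 74.5% of Ctrl (adjusted p = 0.00460 from limma). FBXW7, the adaptor of a ubiquitin ligase for MCL1, fell to 59.45% of Ctrl (adjusted p = 0.007285). Over all 7 lists, 19 of the 49 tested genes rose and 9 fell, with a median log2 fold change of 0.11, beside 25.3% higher, 22.8% lower and a median of 0.03 among all genes tested.

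**Figure D5:**
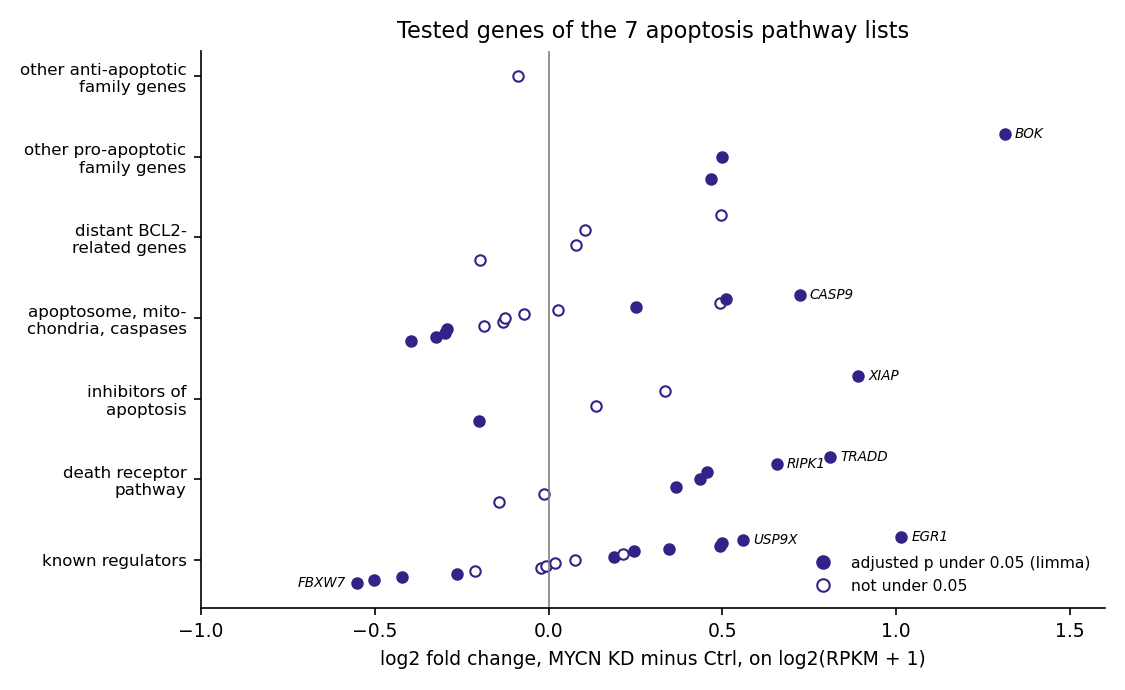
Log2 fold change of the tested genes in the 7 apoptosis pathway lists; filled circles passed an adjusted p of 0.05 from limma, and those of them beyond 0.55 in size are named, with points of a list stepped upwards by value. The 3 tested other pro-apoptotic family genes all lie to the right of 0, and the mitochondrial and caspase list is spread on both sides.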

How the data were processed

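Total RNA of 2 Ctrl and 2 MYCN KD samples was sequenced. Per the labels and the methods of the study, the authors aligned reads to hg19 with HISAT2 2.1.0, counted RefSeq genes with featureCounts, normalized with DESeq2 and RUVSeq and deposited RPKM from normalized counts. The RUVSeq variant and the strand setting are not given in the sources used here. RUVSeq adjusts all samples together, which can shrink the spread between replicates. The methods speak of biological replicates but do not say whether these were separate cultures, so p-values measure the spread between these samples only.

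From the deposited RPKM, log2(RPKM + 1) was fitted for 11411 genes with a mean of at least 1 RPKM by limma 3.58.1 (R 4.3.3, eBayes with trend), without a block, with Benjamini-Hochberg adjustment over all of them and a threshold of 0.05. The script was tested on simulated data with independent samples. Such data lack the opposite deviations of replicates seen here, so that check does not cover the p-values of these samples. Reads were worked back from the RPKM with total reads from miRNA hairpin lengths and the shortest whole gene length, and 100.0% of 19908 genes above 0 came out whole (tolerance 0.01 reads). Whether these are raw or normalized reads is not known. Replicates differed beyond sampling noise (chi-square per degree of freedom 10.073 in Ctrl and 8.98 in MYCN KD), so none was a duplicate. Gene positions are from GENCODE 44 on GRCh37. Another scaling moved the median of all genes by less than 0.1.

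The named genes are all members, MYCN and, from each other list, the tested genes with the lowest adjusted p in each direction (up to 3, or all tested genes of lists under 10), of which 1 gene is not reported here. The members and lists were chosen with earlier results of these data known. Alternatives changed the pseudocount, filter, scaling, eBayes trend, replicate block, test and samples.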

Additional observations from a re-analysis of the deposited data

How the results depend on the processing

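The directions of the 9 tested members were the same under every alternative that tested them. BCL2, BID, PMAIP1, BCL2L11 and BMF also kept their calls in each fit with all 4 samples that tested them, and BAX passed under the crossed pairing below only. Fits with 1 sample left out are read for the size of change only, since a group of 1 sample has no spread of its own. With a mean of at least 5 RPKM, 1868 genes were higher in place of 2890, and 2 members were higher in place of 4, because BBC3 and BMF were then not tested (nor was BCL2L11, which left 2 lower in place of 3). The median log2 fold change of the anti-apoptotic members was 0.42 with the same RPKM total and 0.41 after quantile normalization, and ranged from 0.29 to 0.47 with single samples left out. That of the pro-apoptotic members was -0.48 with a pseudocount of 0.1, -0.31 after quantile normalization and -0.53 with limma voom on whole reads, and each of these values is that of BIK, which has 14 to 30 reads. Differences near 0 changed sign: BIRC2 ranged from -0.00225 to 0.27 with single samples left out, and TNFRSF10B from -0.053 to 0.026, and was 0.024 with the same RPKM total.

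The replicate numbers were not taken as pairs, since same-numbered samples deviated in opposite directions (correlation -0.9845). With the replicate block, 2077 genes were higher and 1851 lower (2890 and 2599 without it), BCL2L1 was no longer called (adjusted p = 0.168) and MCL1 was called (0.0353), both from limma. Of the other named genes, JUN (0.0682), CYCS (0.108), DIABLO (0.164), HTRA2 (0.128) and BIRC5 (0.265) lost their calls under the block and BNIP3L (0.0161) gained one. A crossed pairing, chosen after seeing the data, called 5910 genes higher and 5262 lower. The number of samples limits all p-values, and depth limits BIK and the other genes under 1 RPKM.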

Other observations

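Some family genes were too low to be tested and are given as values. HRK, a BH3-only gene of neurons, had 0.303 and 0.357 RPKM in Ctrl compared with 0.131 and 0.105 in MYCN KD. BCL2L10 had 0.424 and 0.333 RPKM in Ctrl versus 0.183 and 0.271 in MYCN KD. BCL2A1, an anti-apoptotic gene of blood cells, was listed at 0 in 3 samples and at 0.0365 RPKM in MYCN KD replicate 1.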
